A study of Mus musculus with 12 samples.

Results

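The 4 adult haemoglobin genes of the mouse, Hba-a1, Hba-a2, Hbb-bs and Hbb-bt, were followed through AGO2 chimeric eCLIP libraries of the tibialis anterior, a muscle of the lower leg. The genes are 4 of the 55341 genes in the GENCODE M21 annotation. Every listed peak that overlapped one of them by at least 1 nt on the same strand was taken, with no threshold on its value. This gave 32 peaks of the 713343 in the 4 lists of immunoprecipitated library over input, namely 7 of 92451 for WT and 6 of 119859 for mir-486 KO in set 1, and 11 of 244814 for WT and 8 of 256219 for mir-486 KO in set 2. The direct lists, which set the immunoprecipitated libraries of both genotypes against each other, held the same numbers of haemoglobin peaks. The genes were chosen by their log2 folds between genotypes, already known from these lists, so their values are descriptions and no test of them is given.

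In this assay RNA is cross-linked to the protein AGO2 by ultraviolet light in pulverized frozen muscle, immunoprecipitated with it, and read against an input taken from the same sample. WT muscle came from mice whose strain label is C57BL/6 and mir-486 KO muscle from mice whose strain label is FVB N/J, whereas the study's methods describe a backcross of the knockout to C57BL/6J. All mice were 6 months old and, per the methods, male, and the knockout was made by CRISPR as a deletion inside the microRNA hairpin that is not restricted to muscle. Of the 12 labelled libraries, those enriched for miR-486 were not analysed here. Each genotype had 2 total immunoprecipitated libraries with their inputs, 1 in each of 2 library sets, and the sources used here do not say whether a library is 1 mouse or a pool. The methods state more muscle samples for a genotype than it has such libraries, processed in duplicate, so how mice relate to the 2 sets is not known. An exact permutation of 2 against 2 libraries could give a two-sided p no lower than 0.333, and any SD over the sets may be technical. As a check of the labels, the Mir486 gene had 2 WT peaks in set 1 (log2 fold over input 3.68 to 6.62), 4 WT peaks in set 2 (3.50 to 4.99), and 0 listed peaks in mir-486 KO in both sets.

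Haemoglobin carries oxygen in red blood cells and is built from alpha chains, encoded by Hba-a1 and Hba-a2 on chromosome 11, and beta chains, encoded by Hbb-bs and Hbb-bt on chromosome 7. Its mRNAs are made in erythroid precursors and persist in reticulocytes, the young red cells of the circulation, and their usual source in whole tissue is blood. miR-486 is abundant in erythroid cells as well as in muscle, together with miR-451a, which AGO2 itself cuts from its precursor. In bulk tissue, fewer red cells and less haemoglobin mRNA per cell cannot be told apart.

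The 2 genes of each chain are close copies, and no peak was listed in stretches that are the same in both copies over a whole exon. The whole coding sequences of Hba-a1 and Hba-a2 (426 nt each) differed at 1 position and those of Hbb-bs and Hbb-bt (441 nt each) also at 1 position, with identical encoded proteins of 142 and 147 amino acids. Both differences lie in exon 3. Windows of 30 nt are given from the reference genome GRCm38.p6, written 5′ to 3′ on the gene's strand, because they hold the base that tells the copies apart, which is in capitals.
Hba-a1, exon 3, chr11:32284323-32284352 (+): gcggtgcatgcctctctggaCaaattcctt
Hba-a2, exon 3, chr11:32297140-32297169 (+): gcggtgcatgcctctctggaTaaattcctt
Hbb-bs, exon 3, chr7:103826692-103826721 (−): gccttccagaaggtggtggctggagtggcC
Hbb-bt, exon 3, chr7:103812683-103812712 (−): gccttccagaaggtggtggctggagtggcT
These windows lay whole inside 4 listed peaks of Hba-a1, 2 of Hba-a2, 4 of Hbb-bs and 2 of Hbb-bt over the 4 library lists.

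Exon 2, by contrast, was the same within each pair over all of its 205 nt (alpha) or 223 nt (beta), and 0 peaks were listed in exon 2 of any of the 4 genes. Its first 30 nt are given here as the stretch that both copies share without a peak.
Hba-a1 and Hba-a2, exon 2, chr11:32283924-32283953 and chr11:32296741-32296770 (+): gatgtttgctagcttccccaccaccaagac
Hbb-bs and Hbb-bt, exon 2, chr7:103827641-103827670 and chr7:103813632-103813661 (−): gctgctggttgtctacccttggacccagcg
Exon 1 separated the alpha from the beta genes. In Hba-a1 and Hba-a2 the coding part of exon 1 (95 nt) and the 35 nt of 5′ UTR before it were identical, and exon 1 had 0 peaks. The annotated exon 1 is longer in Hba-a1 (291 nt) than in Hba-a2 (130 nt), and the added 5′ UTR of Hba-a1 had no peak either. In Hbb-bs and Hbb-bt the coding part (92 nt) was identical, but the 53 nt of 5′ UTR next to the start codon differed at 9 positions without gaps, and exon 1 had 4 and 5 listed peaks. The 3′ UTRs were identical over 77 aligned nt in the alpha pair and 74.0% identical over 131 aligned nt in the beta pair.

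All 32 peaks overlapped exons, and 0 lay on the opposite strand. Listed peaks covered 64.5% to 89.2% of exon 3 of Hba-a1, up to 68.0% of exon 3 of Hba-a2, 65.8% to 90.4% of exon 3 of Hbb-bs and 43.7% to 78.5% of exon 3 of Hbb-bt. In exon 1, coverage ran from 55.2% to 90.3% for Hbb-bs and from 42.9% to 65.3% for Hbb-bt. The values of a pair are therefore uncertain as gene-specific levels. How reads that match both copies were placed is not given in the sources used here, its part in the empty exons was not tested, and 2 of the 32 peaks, 1 of Hbb-bt and 1 of Hba-a2, had a sequence that occurs whole in another of the 4 genes.

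**Figure D1:**
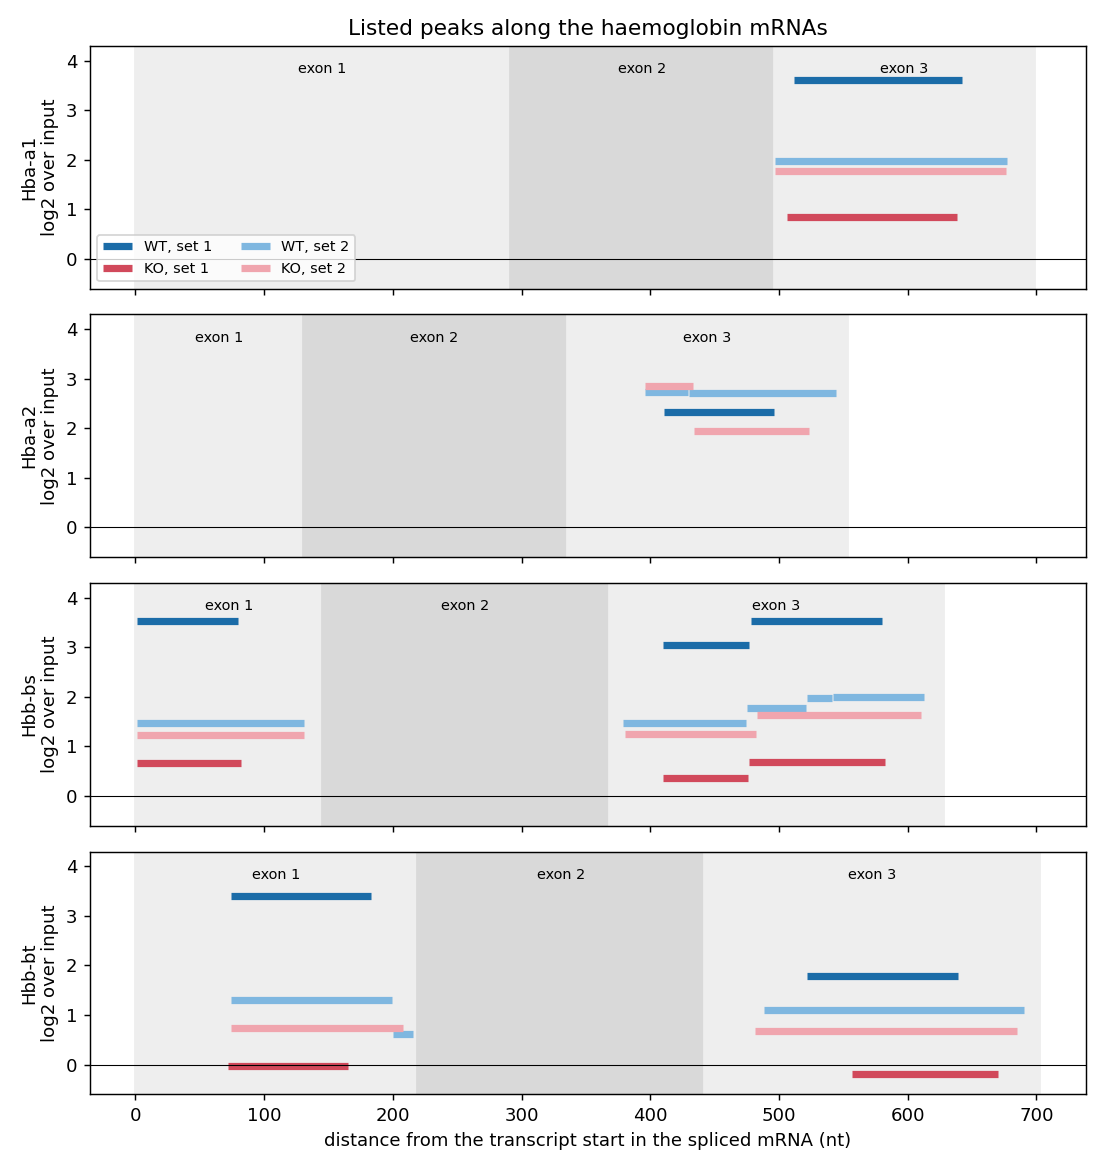
Listed peaks of the 4 haemoglobin genes along their spliced mRNAs, with the distance from the transcript start in nt on the horizontal axis, the authors' log2 fold over input on the vertical axis, 1 bar for each peak and 1 colour for each library. Grey bands are exons. Exon 2 has 0 peaks in all 4 genes, exon 1 has peaks in the beta genes only, and the WT bars of set 1 reach 3.61 while the KO bars of set 1 lie between −0.20 and 0.84.

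Over input, haemoglobin peaks were highest in WT set 1 and lowest in KO set 1 by their medians, with both libraries of set 2 between them. Hba-a1, an alpha chain gene, had 1 peak in each library, at log2 3.61 over input in WT set 1, 0.84 in KO set 1, 1.98 in WT set 2 and 1.77 in KO set 2. The deposited −log10 p of these peaks were 44.2, 5.37, 400 and 400, where 400 is the highest value written. WT was above KO in both sets, by a wide margin in set 1 and a narrow one in set 2.

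Hba-a2, the other alpha chain gene, had 1 WT peak in set 1 at log2 2.33 over input (−log10 p 1.85) and no listed KO peak there. In set 2 its WT peaks were at 2.74 and 2.71 and its KO peaks at 2.85 and 1.95. The WT and KO ranges of Hba-a2 overlapped in set 2.

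Hbb-bs, a beta chain gene, had the most peaks. In WT set 1 they were at log2 3.53 and 3.06 over input in exon 3 and at 3.53 in exon 1, and in KO set 1 at 0.68, 0.37 and 0.67 in the same order. In set 2 the 5 WT peaks ran from 1.47 to 1.99 and the 3 KO peaks from 1.24 to 1.63. The genotypes did not overlap in set 1 and overlapped in set 2.

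Hbb-bt, the other beta chain gene, was lowest over input in 3 of the 4 libraries by its median. Its peaks in exon 3 and exon 1 were at 1.78 and 3.40 in WT set 1 and at −0.20 and −0.03 in KO set 1. In set 2 the WT peaks were at 1.11 in exon 3 and at 0.61 and 1.30 in exon 1, and the KO peaks at 0.67 and 0.73. Both KO peaks of set 1 were thus below their input, with a deposited −log10 p of 0, the value that every peak with a negative fold carries in these lists.

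Over all haemoglobin peaks, the median log2 fold over input was 3.40 in WT set 1 and 1.77 in WT set 2 (mean 2.58 ± 1.15, SD, n = 2 sets), and 0.52 in KO set 1 and 1.44 in KO set 2 (mean 0.98 ± 0.65, SD, n = 2 sets). The medians of all listed peaks were 0.68 and 0.47 in WT and 0.38 and 0.45 in KO. The haemoglobin peaks of WT moved between the sets by more than the genotypes differed in set 2.

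Of the haemoglobin peaks, 5 of 7 in WT set 1 had a log2 fold and a −log10 p of at least 3, against 3.57% of all listed peaks of that library. The count was 0 of 6 in KO set 1 (0.848% of all peaks), 0 of 11 in WT set 2 (1.42%) and 0 of 8 in KO set 2 (1.23%). At a log2 fold of at least 1 the counts were 5 of 7 (7.14%), 0 of 6 (1.99%), 10 of 11 (5.37%) and 6 of 8 (4.72%) in the same order. The nearest members around the higher threshold were the Hbb-bs peak at 3.06 inside it and the Hba-a2 peaks at 2.85 and 2.74 outside it. These shares are given as a background for the counts and nothing is read from them, since the same lists led to the choice of the genes.

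**Figure D2:**
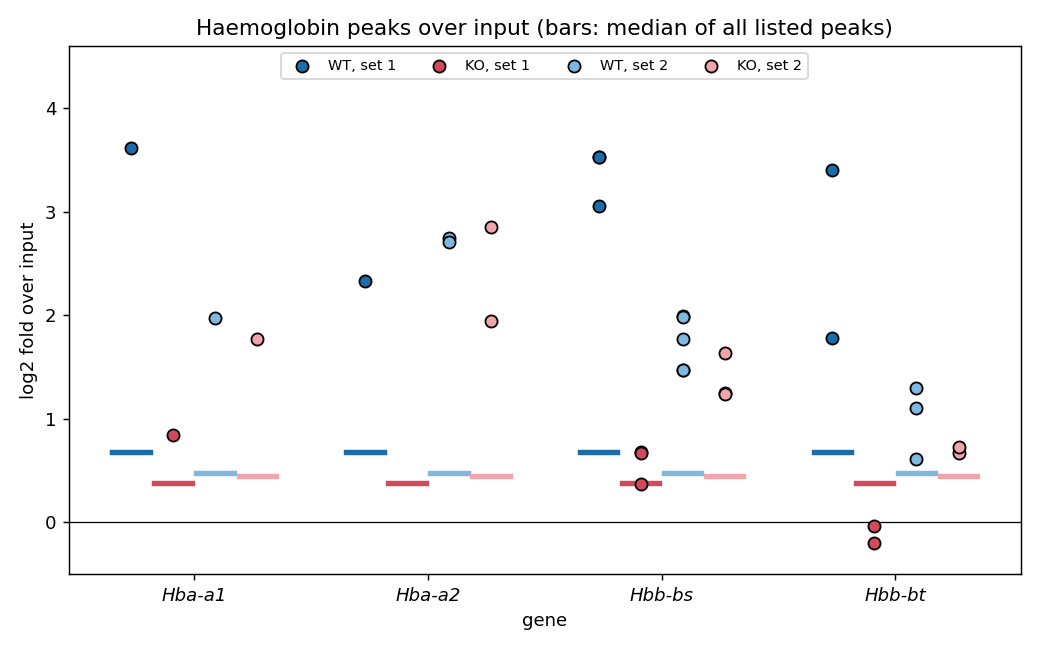
Log2 fold over input of each haemoglobin peak (points) by gene and library, with short horizontal bars at the median of all listed peaks of that library. The WT points of set 1 lie between 1.78 and 3.61, the KO points of set 1 between −0.20 and 0.84, and both genotypes of set 2 between 0.61 and 2.85.

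In the direct comparison of immunoprecipitated libraries, all haemoglobin peaks were higher in WT than in mir-486 KO, in both sets and from both sides. Both sides of a set compare the same libraries, so at overlapping peaks the KO fold is nearly the WT fold with its sign changed. The KO side is therefore not separate evidence. For Hba-a1 the log2 fold of WT over KO at the WT peak was 0.91 in set 1 and 1.47 in set 2. For Hba-a2 it was 2.30 in set 1, and 1.55 and 1.54 in set 2. Both alpha genes were higher in WT, Hba-a2 more so in set 1.

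For Hbb-bs the log2 WT over KO was 2.19 and 2.02 in exon 3 and 0.82 in exon 1 in set 1, and between 1.30 and 1.48 at the 5 peaks of set 2. For Hbb-bt it was 1.16 in exon 3 and 1.44 in exon 1 in set 1, and 1.36 in exon 3 and 1.86 and 1.76 in exon 1 in set 2. Within set 1 the exons of Hbb-bs differed by more than 1 log2 unit, with exon 3 the higher, whereas in Hbb-bt exon 1 was the higher in both sets.

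The mean of the gene medians over the sets was 1.19 ± 0.40 for Hba-a1, 1.92 ± 0.53 for Hba-a2, 1.72 ± 0.42 for Hbb-bs and 1.53 ± 0.33 for Hbb-bt (log2 WT over KO, SD, n = 2 sets). The order of the genes was Hba-a2, Hbb-bs, Hbb-bt, Hba-a1, and neighbours in this order differed by less than the larger of their SDs. Over all haemoglobin peaks the median was 1.44 in set 1 and 1.47 in set 2 (mean 1.45 ± 0.02, SD, n = 2 sets). These pooled medians are over different peaks in each set, and the single genes varied more between the sets (SD 0.33 to 0.53). The median of all listed peaks in the same lists was 0.74 and 0.30, and each list holds the peaks that were called in the library named first. In set 1, 48.1% of all listed peaks reached the lowest haemoglobin peak, and in set 2, 16.2% did.

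At the KO peaks, the list that favours KO by its making, the haemoglobin folds were all negative. Where a KO peak overlaps a WT peak of its set, this sign follows from the fold at the WT peak. The log2 KO over WT ran from −2.19 to −0.85 at 6 peaks of set 1 and from −1.77 to −1.32 at 8 peaks of set 2, with medians of −1.43 and −1.47 (mean −1.45 ± 0.03, SD, n = 2 sets). Single genes with KO peaks in both sets varied more between the sets (SD 0.10 to 0.48). The medians of all listed KO peaks were 0.72 and 0.27, and 32.5% and 37.4% of them were below 0. At or below the haemoglobin peak nearest to 0 lay 13.5% of all KO peaks in set 1 and 1.29% in set 2.

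With a log2 fold and a −log10 p of at least 3, 0 of 7 haemoglobin peaks passed in the WT over KO list of set 1 (0.469% of all listed peaks) and 0 of 11 in set 2 (0.0192%), and 0 of 6 (0.179%) and 0 of 8 (0.0144%) passed in the KO over WT lists. With a log2 fold of at least 1, 4 of 7 passed in set 1 (4.85% of all listed peaks) and 11 of 11 in set 2 (0.403%) in the WT over KO lists, and 0 passed in the opposite lists (0.755% and 0.144%). Among genes with at least 2 peaks, ranked by median log2 WT over KO, Hbb-bs was 629th and Hbb-bt 3229th of 10327 in set 1. In set 2 Hbb-bt was 236th, Hba-a2 969th and Hbb-bs 1062nd of 13288.

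**Figure D3:**
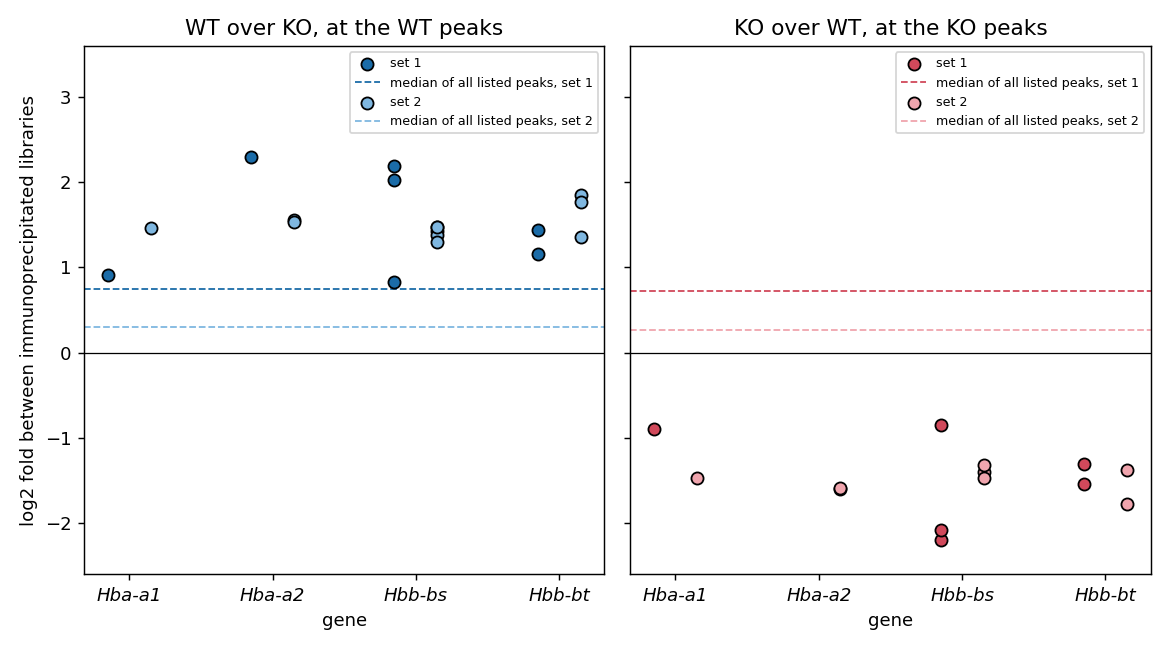
Log2 fold between the immunoprecipitated libraries at each haemoglobin peak, with WT peaks on the left (WT over KO) and KO peaks on the right (KO over WT), by gene and set. Dashed lines are the medians of all listed peaks of each list. All points on the left lie above 0, from 0.82 to 2.30, and all on the right below 0, from −2.19 to −0.85.

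The folds over input and the direct folds together hold the difference between the inputs. At a WT and a KO peak of one set that overlapped by at least 80% of both, the log2 WT over KO of the inputs equals the direct fold minus the difference of the folds over input, provided that each library was scaled by the same total in every list. The sets came apart here.

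In set 1 there were 5 such haemoglobin pairs. Their folds over input were higher in WT by 2.69 to 3.43 log2 units (median 2.85), more than the direct fold, so that the implied log2 WT over KO of the inputs was negative, from −2.03 to −0.66 (median −1.86). Hba-a1 was at −1.86, the 3 pairs of Hbb-bs at −0.66, −0.67 and −2.03, and Hbb-bt at −1.99. By this calculation haemoglobin RNA was lower in the WT input than in the KO input, and higher in the WT than in the KO immunoprecipitate.

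In set 2 the 6 pairs were the reverse. Their folds over input differed between genotypes by −0.11 to 0.56 log2 units (median 0.23), and the implied log2 WT over KO of the inputs was positive, from 0.93 to 1.66 (median 1.22). Hba-a1 was at 1.26, Hba-a2 at 1.66, Hbb-bs at 1.07 and 1.24, and Hbb-bt at 1.20 and 0.93. The size of the WT to KO fold in the immunoprecipitate of set 2 was therefore close to that in its input.

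Other peaks were set beside these pairs. Over all 10211 matched pairs of set 1, the median difference of the folds over input was 0.90 and the median implied input fold −0.42, and 42.2% of pairs were at or below the haemoglobin pair nearest to 0. In 6 genes of skeletal muscle fibres (Acta1, Ckm, Myh4, Tnnt3, Pvalb and Des), 109 matched pairs of set 1 had medians of 2.03 and −1.29, the same signs as haemoglobin. Over all 32147 matched pairs of set 2, the medians were −0.0041 and −0.06, and 7.83% of pairs were at or above the haemoglobin pair nearest to 0. In the muscle genes of set 2, 234 pairs had medians of −0.10 and 0.04. In set 1 the split between input and immunoprecipitate was thus found in muscle genes as well, whereas in set 2 muscle genes were near 0 on both measures.

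**Figure D4:**
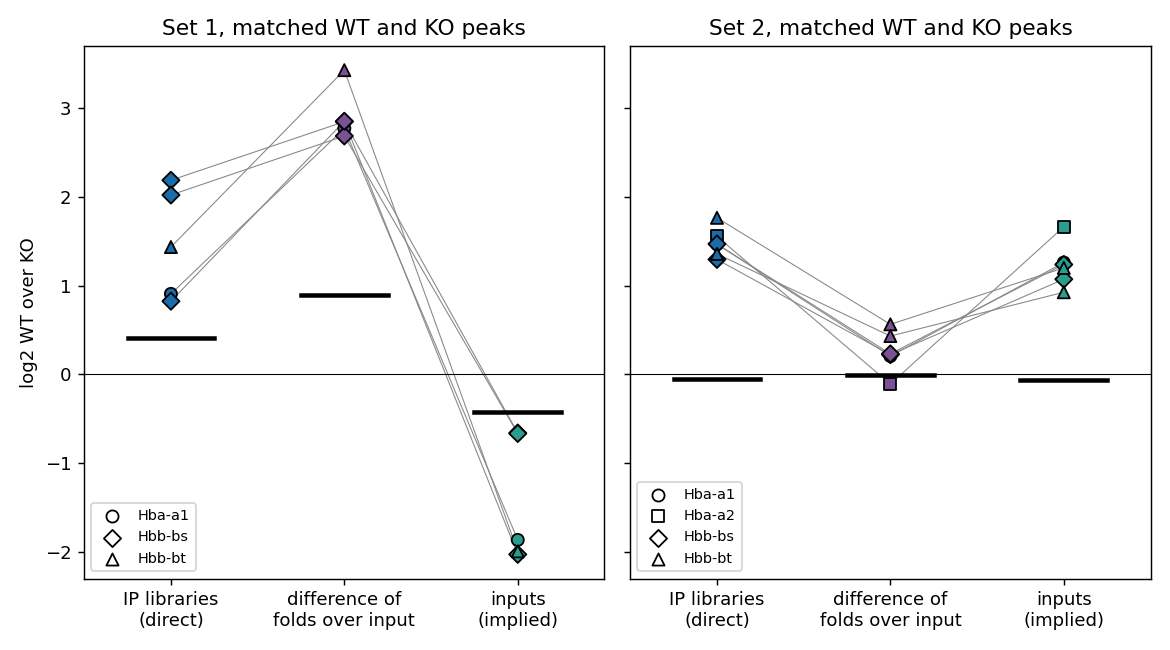
Haemoglobin peaks matched between WT and KO in set 1 (left) and set 2 (right), with the log2 WT over KO of the immunoprecipitated libraries, the WT minus KO difference of log2 folds over input, and the implied log2 WT over KO of the inputs. Each grey line is 1 pair, symbols mark the gene, and black bars are medians over all matched pairs. The implied input folds lie between −2.03 and −0.66 in set 1 and between 0.93 and 1.66 in set 2.

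Blood also brings other RNAs, and lists of these were read for the same lists of peaks. Among 9 other globin genes, 2 had peaks. Myoglobin (Mb), the oxygen-binding globin of muscle fibres, was at log2 2.09 over input in WT set 1 and −0.61 in KO set 1, 0.02 and 0.20 in set 2, and at log2 WT over KO 0.72 in set 1 and −0.33 in set 2. Cygb, a globin of fibroblast-like cells, was at 0.74, from 1 WT peak, and 1.46 on the latter scale. At the KO peaks its median log2 KO over WT was 2.16 in set 1 and −1.26 in set 2, so that in set 1 each side favoured its own library. The embryonic globins had 0 listed peaks. The globin of muscle was thus above 0 in 1 set only, unlike haemoglobin.

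All 15 genes for haem synthesis and iron handling had WT peaks. Their peaks had a median log2 WT over KO of 1.03 in set 1 and 0.40 in set 2, and gene medians were above 0 in 15 genes in set 1 and in 10 genes in set 2, where 91.3% and 77.6% of all genes with WT peaks had a median above 0. At the KO peaks of the list the median log2 KO over WT was −0.35 and −0.29. Slc25a37, the mitochondrial iron importer of erythroid cells, was at 0.66 and 0.99. At its KO peaks the median log2 KO over WT was 0.55 in set 1 and −0.83 in set 2, so that in set 1 each side favoured its own library. Alas2, which catalyses the first step of haem synthesis in erythroid cells, was at 1.32 and 1.14. At its only KO peak in set 1, however, the log2 KO over WT of Alas2 was 1.43, so that the lists of both sides did not point one way there. In set 2 its median log2 KO over WT was −1.35 at 21 KO peaks, so that both sides favoured WT there. Alas2 was named after its values were seen, as were Cygb, Pf4, S100a8 and S100a9.
Other members of the list with at least 3 peaks in each library list did not share one direction in set 2. Tfrc, the transferrin receptor, was at 0.90 and 0.61, and Fech, which inserts iron into haem, at 0.86 and 0.34. Urod was at 1.88 and −0.20, and Alad at 1.16 and −0.86. Abcb10 was at 1.61 and −0.04, Cpox at 0.74 and −0.20, and Alas1 at 0.16 and −1.8e-05. At the KO peaks of set 1 the median log2 KO over WT was also above 0 for Tfrc (0.43) and Cpox (0.55). It was below 0 there for Fech, Urod, Alad, Abcb10 and Alas1.

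Of the 24 genes of the red cell membrane and of erythroid cells, 23 were in the annotation, and 15 had WT peaks in set 1 and 20 in set 2, with median log2 WT over KO of 0.74 and 0.19, equal to and below the medians of all listed peaks. At the KO peaks of this list the median log2 KO over WT was also above 0, at 0.43 and 0.13, unlike haemoglobin. Bnip3l, which removes mitochondria from maturing red cells, was at 0.57 and 0.33, and Bpgm, which makes the haemoglobin ligand bisphosphoglycerate, at 0.35 and 0.35. Ank1, the host gene of miR-486 and a membrane skeleton gene of red cells and muscle, was at 0.74 and 0.14. Sptb, Epb41, Gypc, Aqp1, Prdx2 and Ube2o, the others with at least 3 peaks in each library list, ran from 0.16 to 1.38 in set 1 and from −0.34 to 0.44 in set 2. Of the 8 erythroid regulators, 2 had WT peaks in set 1 and 4 in set 2 (median 0.16 and 0.99, against a median log2 KO over WT of 0.57 and 0.54 at the KO peaks), and the defining factors Gata1, Klf1 and Nfe2 had 0 listed peaks in all lists. The medians of these 3 lists lay below that of haemoglobin in both sets, but the haemoglobin genes were chosen by this fold. With no minimum number of peaks, the highest gene median of each list lay above that of haemoglobin in both sets. It was 2.04 and 1.79 for haem synthesis and iron, 2.48 and 1.71 for red cell genes, and 1.74 and 1.71 for regulators.

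Platelet and neutrophil genes were sparsely covered, and endothelial genes were not. Of the 6 platelet genes, 1 had WT peaks in set 1 (Pf4, median log2 WT over KO 0.76) and 5 in set 2 (median 1.22). At the KO peaks the platelet median of log2 KO over WT was 1.43 in set 1, from Pf4 alone, and −0.95 in set 2. Of the 6 neutrophil genes, S100a8 and S100a9 had WT peaks, at log2 WT over KO 3.16 and 1.16 in set 1 and 1.12 and 2.19 in set 2, and 0 listed peaks in KO. These genes entered through WT peaks alone, 2 in set 1 and 3 in set 2, which favours WT, and none of their peaks had a log2 fold of at least 1 with a −log10 p of at least 3. The 6 endothelial genes had peaks in every list, with a median log2 WT over KO of 0.74 in set 1 and 0.06 in set 2, and of log2 KO over WT of 1.16 and 0.29 at the KO peaks. The 6 muscle genes were at 0.57 and −0.04 for WT over KO, and at −0.55 and 0.02 for the opposite. The part of the blood content of the muscle, and of the strain named in the labels, in the haemoglobin folds was not tested.

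**Figure D5:**
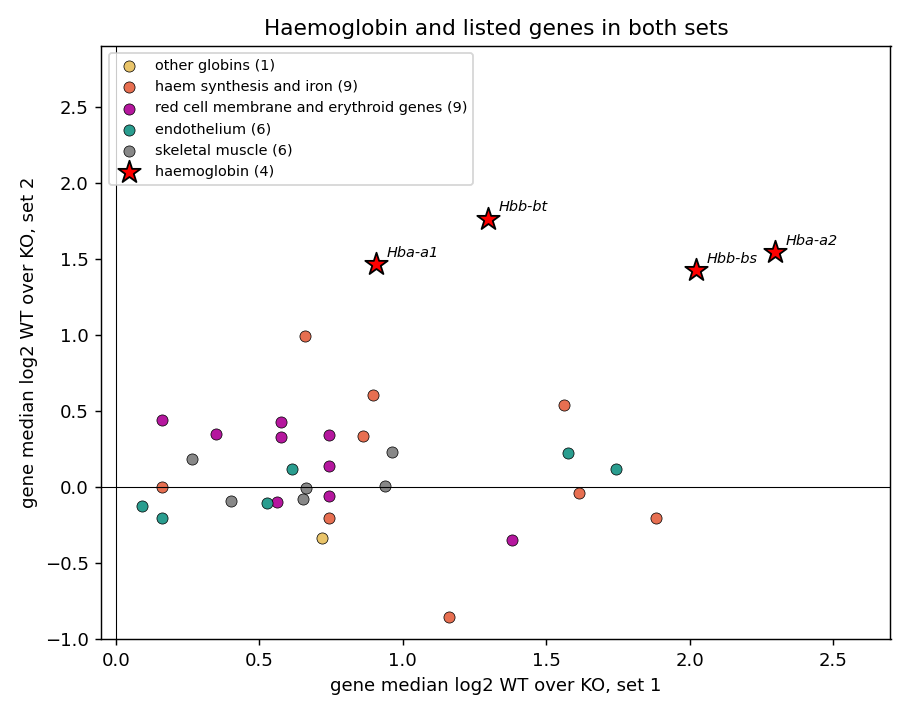
Median log2 WT over KO of single genes in set 1 (horizontal axis) and set 2 (vertical axis), for the 4 haemoglobin genes (stars) and for the genes of 5 lists that have at least 3 listed peaks in each library list, with their number in brackets. The haemoglobin genes lie from 0.91 to 2.30 in set 1 and from 1.43 to 1.76 in set 2, where the other genes shown reach 0.99 at most.

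A pair of microRNA genes of erythroid cells, added after the data were seen, differed from the haemoglobin mRNAs in their direct folds. Mir451a was at log2 7.90 over input in WT set 1, 7.31 in KO set 1, 11.72 in WT set 2 and 12.13 in KO set 2, and Mir144 at 5.32, 5.66, 9.77 and 9.14. Their log2 WT over KO was −0.32 and −0.27 in set 1 and 0.44 and 0.51 in set 2. The direct folds of both microRNA genes thus had opposite signs in the sets, where haemoglobin was above 0 in both. At the only pair of these genes matched by 80% of both peaks in each set, that of Mir451a, the implied log2 WT over KO of the inputs was −0.92 in set 1 and 0.89 in set 2, the signs seen for haemoglobin. With a matching overlap of 50% the signs were mixed within each set. The 3 pairs of set 1 then ran from −0.92 to 0.07 (median 0.07), and the 2 pairs of set 2 from −0.12 to 0.89.

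Seed matches were searched for in the haemoglobin mRNAs, since AGO2 finds its targets by the seed, bases 2 to 8 of the microRNA. The mature sequences, from RefSeq, are given with the seed in capitals, for both erythroid microRNAs above and for 2 that are common in most tissues.
mmu-miR-451a: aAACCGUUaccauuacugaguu
mmu-miR-144-3p: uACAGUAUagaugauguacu
mmu-miR-16-5p: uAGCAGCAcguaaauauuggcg
mmu-let-7a-5p: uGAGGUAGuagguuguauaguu
The word complementary to the seed was searched for on the strand of the gene. For miR-451a the word AACGGTT was held by 0.199% of all 713343 listed peaks. For miR-144-3p the word ATACTGT was held by 0.518% of them, for miR-16-5p the word TGCTGCT by 2.42%, and for let-7a-5p the word CTACCTC by 1.23%. In the 4 spliced haemoglobin mRNAs these words occurred 0 times, and 0 of the 32 haemoglobin peaks held one, also when peaks were extended by 25 nt on each side. This says only that these letters are not in these mRNAs. mmu-miR-486a-5p and mmu-miR-1a-3p were not searched for.

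Among 7138 genes with at least 3 peaks in each of the 8 lists, those whose 8 medians lay nearest to the haemoglobin medians by Euclidean distance were Otud1 (1.56), Fosl2 (1.59), Lgals1 (1.81), Naxe (1.85) and Tubb4b (1.87), against a median distance of 4.50 over all genes. All 5 were above 0 in WT over KO in both sets. In set 2 they reached 0.15 to 0.81 on that scale, below the 1.47 of haemoglobin.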

How the data were processed

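AGO2 chimeric eCLIP libraries and inputs of WT and mir-486 KO tibialis anterior were compared in 2 library sets. Per the labels and the study's methods, the authors trimmed adapters with cutadapt, handled molecular identifiers with UMI-tools, aligned reads to GRCm38 with STAR, called peaks with CLIPper in each immunoprecipitated library and normalized them to a second library. Replicates were not pooled. The authors deposited a log2 fold and a −log10 p-value for each peak, without read counts, so depth is unknown and no interval is given. The highest −log10 p deposited was 400, and a peak with a negative log2 fold carried 0. These folds are the authors' own and were used as deposited.

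Peaks were assigned to genes with bedtools 2.31.1 on GENCODE M21 (the labels name M24), where they shared 1 nt or more of the same strand. The assignment was tested on 2000 simulated peaks, of which 300 were planted on genes, and 100% of these were found. Coordinates are 1-based, and all 21 chromosomes of the lists fitted the reference. The median over haemoglobin peaks was taken for each list, with mean and SD over the 2 sets. A peak passed the thresholds where both its log2 fold and its −log10 p were 3 or more, and a log2 fold of 1 or more was given beside them. The methods name no threshold.

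The 4 genes and the gene lists were chosen with earlier results of these data known. Named genes were the 4 members, listed genes with at least 3 peaks in each library list, and the 5 genes nearest by their 8 medians. The values of 1 listed gene are not reported here. No test was made. Alternatives were other overlaps, strands, thresholds and weights, merged peaks, centring on all listed peaks, a matching overlap of 50%, and each set alone. Mature microRNA sequences were from RefSeq.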

Additional observations from a re-analysis of the deposited data

Results flagged for a closer look

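The implied log2 WT over KO of haemoglobin in the inputs had opposite signs in the library sets. Its median was −1.86 over 5 matched pairs of set 1, all of them below 0, and 1.22 over 6 matched pairs of set 2, all of them above 0. The difference between the sets was not tested. In the same sets the median over all matched pairs was −0.42 and −0.06, and the median over matched pairs of the 6 muscle genes was −1.29 and 0.04.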

How the results depend on the processing

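Of 70 alternatives other than leaving out a set, 59 kept the value within the SD over the sets or the count within 1.5 times, 11 moved further and 0 reversed the sign. Some of the 59 could not move. All haemoglobin peaks overlapped exons and 0 lay on the opposite strand, and negative folds fixed the count of KO over WT peaks at 0. The SD was also wide for the medians over input (1.15 in WT, 0.65 in KO) and the implied inputs (2.18), so this tally does not measure robustness. The median log2 WT over KO of haemoglobin peaks, 1.45, became 1.59 with each gene counted once, 1.60 with a −log10 p of at least 3 and 0.93 after subtracting the median of all listed peaks. The median log2 KO over WT, −1.45, became −1.49 with each gene counted once, −1.39 weighted by peak length and −1.94 after the same subtraction, and with a −log10 p of at least 3 no peak was left. The subtracted medians are the 0.74, 0.30, 0.72 and 0.27 of the direct lists. With a log2 fold of at least 1, there were 15 enriched WT peaks and 6 enriched KO peaks over input (5 and 0 at the threshold of 3), and the WT over KO peaks 15. With a log2 fold of at least 2, enriched KO peaks numbered 1 and WT over KO peaks 3. With either set left out, the median over input ran from 1.77 to 3.40 in WT and from 0.52 to 1.44 in KO, the direct medians from 1.44 to 1.47 and from −1.47 to −1.43, and the enriched WT peaks from 0 to 5, all of them from set 1. The implied log2 WT over KO of the inputs had a mean of −0.32 over the sets and ran from −1.86 to 1.22, so its sign rested on the set: 1.22 without set 1. Overlaps, strand, exons and peaks found in 1 gene changed no count. No paired analysis was possible because no result comes from a test, and each direct list already compares libraries of one set. Depth is unknown, so a missing peak, such as that of Hba-a2 in KO set 1, says only that none was listed. The centring, the matching overlap of 50% and the peaks extended by 25 nt were chosen after seeing the data.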
